A study of Caenorhabditis elegans with 2 samples.

Results

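The dmd-4 locus of Caenorhabditis elegans was described region by region from chromatin immunoprecipitation followed by sequencing (ChIP-seq) against DMD-4. The strain used carries a transgene for tagged DMD-4. The locus was taken as the dmd-4 gene (WBGene00007776, X:14857303-14861852 in ce11, minus strand) with 50 kb on each side, a span of 104550 bp. Every region of the deposited ce11 lists that overlapped this span was a member. Members numbered 30 of the 11281 candidate regions called on both replicates together (the pooled list), 42 of 17531 in replicate 1, 32 of 18240 in replicate 2, and 4 of the 212 peaks on the authors' thresholded list. That list rests on the irreproducible discovery rate (IDR), a measure of how well the ranks of regions repeat from one replicate to the other, and its entries are called IDR peaks.

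The study had 1 group with 2 biological replicates. These were whole L2 larvae, with the sexes not separated, of strain OP418, whose genotype is unc-119(tm4063) III with the transgene wgIs418. The transgene makes DMD-4 with a GFP-FLAG tag at its C terminus, and the genotype lists no change to the native dmd-4 gene. The label for the antibody names dmd-4 and no reagent. No treatment and no second genotype belonged to the group, chromatin was sheared by sonication, and the cells that make the tagged protein were not separated from the rest of the animal. Which stretch of the genome wgIs418 carries, and in how many copies, is not stated in the sources used, so sequence from the transgene and from the native locus cannot be told apart in any value below.

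DMD-4 belongs to the DM-domain family, transcription factors that bind DNA through intertwined zinc modules and include Doublesex of Drosophila and MAB-3 of C. elegans. Members of the family act in sex-specific development, and in C. elegans several of them shape sexually dimorphic neurons. DMD-4 also has a DMA domain, through which its protein is kept stable in a sex-specific way in sensory neurons of the tail. Transcription factors often bind at their own gene.

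The sequences at the summits of the 4 IDR peaks are shown because these were the strongest pooled regions of the locus. Also shown is a region close to the dmd-4 start site, strong in both replicates but without a counterpart in the pooled list. In each replicate some regions not shown had higher signals than some of the IDR peaks. The sequences are windows of 100 bp on each side of a summit, taken from the RefSeq genome WBcel235 (the same assembly as ce11). They are on the forward strand and written 5′ to 3′. Capitals mark the 21 bases centred on the summit, the position of highest signal. The first window, X:14813410-14813610, lies in an intron of T04C10.3. The second and the third, X:14840223-14840423 and X:14841128-14841328, lie between dpf-2 and egrh-1. The fourth, X:14859123-14859323, lies in intron 2 of dmd-4, and the fifth, X:14862045-14862245, upstream of dmd-4 at the summit of replicate 1.
T04C10.3 intron: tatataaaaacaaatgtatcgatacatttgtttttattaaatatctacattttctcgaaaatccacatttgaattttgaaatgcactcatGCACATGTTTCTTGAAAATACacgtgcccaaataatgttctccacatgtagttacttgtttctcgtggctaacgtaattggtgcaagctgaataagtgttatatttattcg
upstream of egrh-1, far: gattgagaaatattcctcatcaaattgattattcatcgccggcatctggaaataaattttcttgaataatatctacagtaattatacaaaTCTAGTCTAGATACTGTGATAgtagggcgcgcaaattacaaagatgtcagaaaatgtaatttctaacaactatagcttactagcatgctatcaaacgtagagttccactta
upstream of egrh-1, near: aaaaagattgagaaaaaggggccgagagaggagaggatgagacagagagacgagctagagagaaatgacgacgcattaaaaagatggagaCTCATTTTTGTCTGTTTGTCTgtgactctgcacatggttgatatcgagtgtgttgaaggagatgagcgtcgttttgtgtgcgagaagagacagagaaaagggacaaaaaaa
dmd-4 intron 2: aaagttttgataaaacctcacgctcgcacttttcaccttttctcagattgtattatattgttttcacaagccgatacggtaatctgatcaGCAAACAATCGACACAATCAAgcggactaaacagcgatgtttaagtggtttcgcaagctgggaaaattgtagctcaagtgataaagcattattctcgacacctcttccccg
dmd-4 start site: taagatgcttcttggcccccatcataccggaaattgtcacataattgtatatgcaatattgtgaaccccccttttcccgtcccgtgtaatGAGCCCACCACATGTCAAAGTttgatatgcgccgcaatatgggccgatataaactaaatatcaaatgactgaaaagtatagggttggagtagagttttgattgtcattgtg

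Of the 30 pooled members, 4 (13.3%) were IDR peaks, with a 95% exact binomial interval of 3.76% to 30.7%. The share was 1.88% over all pooled candidate regions and 1.90% over those of X. Intervals here cover the counting of regions only, and neighbouring regions are not independent. The signal is the authors' enrichment value from each list. No source used here states its scale, so it is ranked only within a list, and values of different lists are set side by side without assuming equal scales. By signal, the IDR peaks were the 212 strongest pooled regions, as the lowest had 46.4 and the highest other pooled region 46.3. The share of 13.3% is thus also the share of members above that signal. It does not give the strength of a peak in each replicate. Read depth is unknown, since the lists hold regions and not reads. The gene and the span were chosen with earlier results of these data known, and no test was made.

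The strongest member lay inside dmd-4. Its IDR peak at X:14859048-14859397 reached 91.0 in the pooled list, beside 47.8 and 46.1 in replicates 1 and 2. The summit fell in intron 2, a 2677 bp intron that takes up most of the 4550 bp gene, 2629 bp downstream of the start site. Among the IDR peaks it ranked 69th of 212 overall and 21st of 46 on X. An overlapping pooled region at X:14859248-14859597 had a signal of 39.6. With the IDR peaks of the locus, it was among the 356 pooled regions at the highest −log10 q-value of the list. It was no IDR peak itself, and its signal lay below that of every IDR peak. The lowest IDR peak of the whole list had a signal of 46.4, and the highest pooled region that was no IDR peak had 46.3. A weaker pooled region lay in intron 3 of dmd-4, at X:14858374-14858723, with signals of 16.5 pooled, 8.4 in replicate 1 and 8.8 in replicate 2.

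A pair of IDR peaks lay between dpf-2 and egrh-1, closer to each other than to either gene. dpf-2 encodes a dipeptidyl peptidase IV family protein, and egrh-1 a zinc finger protein of the early growth response (EGR) type. At X:14841053-14841402, 4709 bp upstream of the egrh-1 start site, the signals were 60.4 pooled, 41.6 in replicate 1 and 24.5 in replicate 2. At X:14840148-14840497, 5614 bp upstream, they were 48.1, 28.9 and 14.8. In both, replicate 1 gave the higher value. The remaining IDR peak was reversed in this respect. It spanned X:14813335-14813684 in an intron of T04C10.3, and its signals were 52.2 pooled, 16.3 in replicate 1 and 33.2 in replicate 2. The replicate values ranked 1215th of 17531 and 109th of 18240. By pooled signal these 3 IDR peaks ranked in the lower part of the list, at 124th, 196th and 169th of 212 in the order given.

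The second strong site of dmd-4 was close to its start, and only the replicate lists held it. In replicate 1 a region at X:14861973-14862316 had its summit 293 bp upstream of the annotated start site and a signal of 42.5, which ranked 90th of 17531 in that list and 2nd among its 42 members. In replicate 2 the region spanned X:14861958-14862307 with its summit 281 bp upstream and a signal of 51.6, ranked 60th of 18240 and 1st among its 32 members. The region thus stood among the strongest of either replicate, and in both it was at the highest −log10 q-value of the list, 2.81 and 2.63. It overlaps the non-coding RNA gene C27C12.10. No pooled region overlapped it, and the nearest one ended 2376 bp from the region of replicate 1 and 2361 bp from that of replicate 2. Without a pooled counterpart it could not be an IDR peak, since all IDR peaks were pooled regions.

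Such an absence was rare. Over the nuclear genome, 71 regions of replicate 1 reached a signal of 30 and overlapped a region of replicate 2 that did so too. The dmd-4 start-site region was the 1 of these 71 (1.41%) that no pooled region overlapped. The authors' lists on the older assembly ce10 gave a like count, with 1 of 74, again on X, at signals of 41.2 and 54.3. That region was not matched by position to the one in ce11. The cutoff of 30 was chosen after the region had been seen. With each replicate's 212 strongest regions, as many as there were IDR peaks, 100 nuclear regions of replicate 1 had a partner in replicate 2. Of these 100, 2 were members, those of dmd-4 intron 2 and of the dmd-4 start site, and 1 lacked a pooled region. The checksums of all lists used matched the deposited ones. Why the pooled list holds no such region was not tested.

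**Figure D1:**
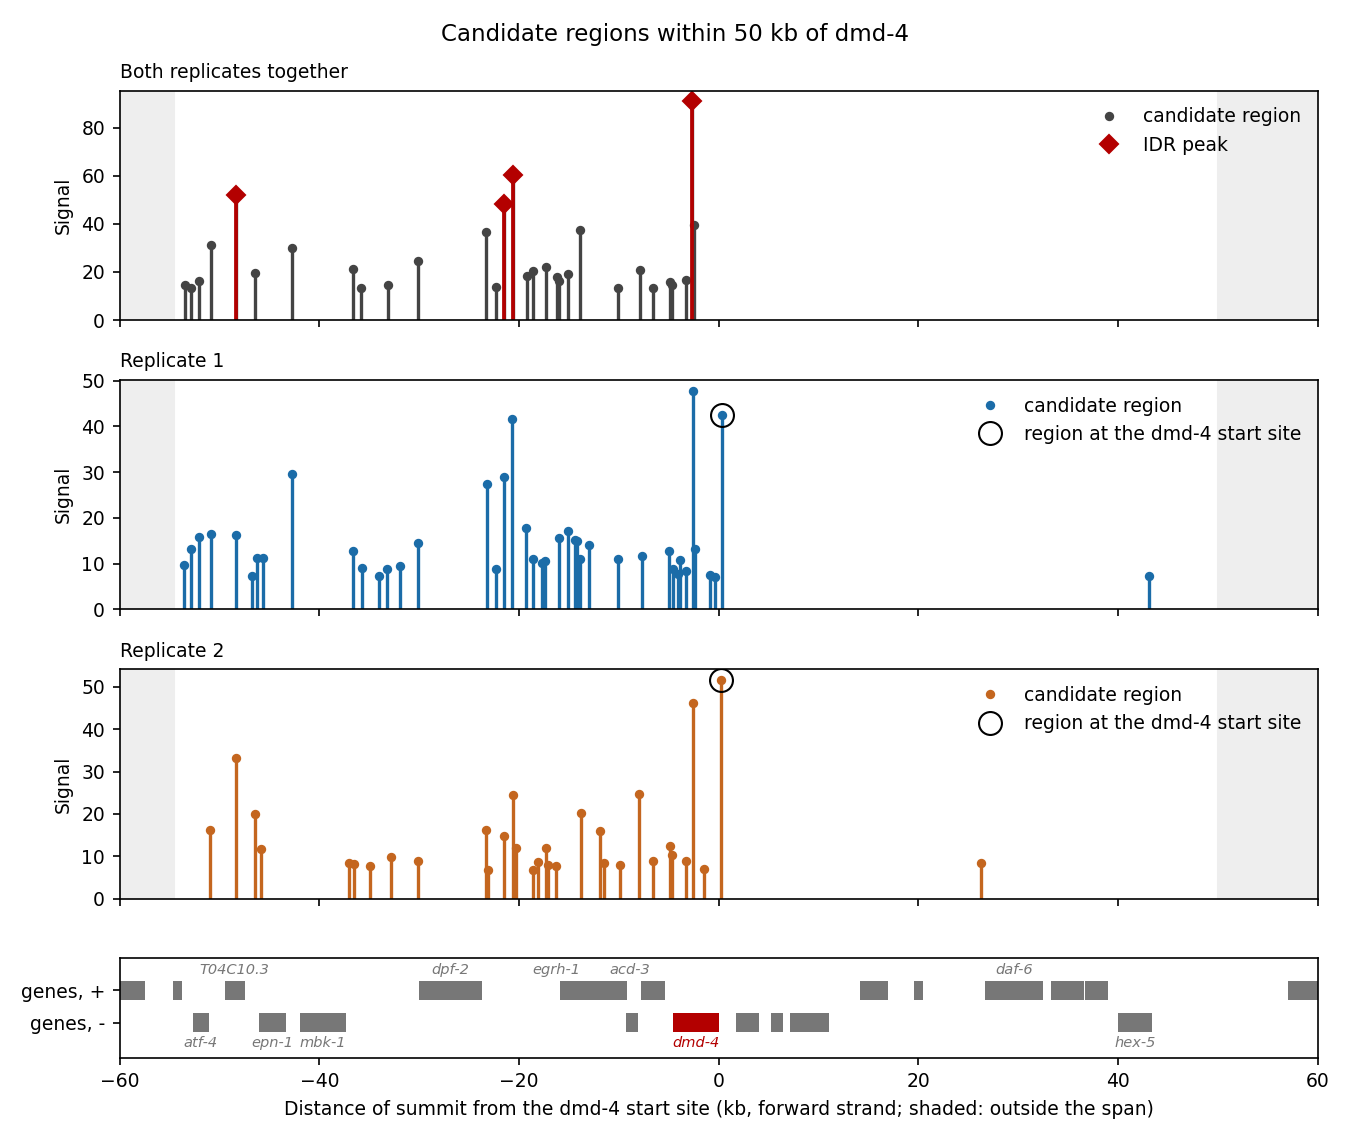
Signal of each candidate region against the distance of its summit from the dmd-4 start site, in kb along the forward strand, for the pooled list and each replicate, with protein-coding genes by strand below. The 4 IDR peaks (diamonds) and nearly all other regions lie to the left of the start site, and the circled start-site region, at 42.5 and 51.6, appears in both replicates and not in the pooled list.

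The regions were spread unevenly along the span. All 30 pooled members lay between X:14808229 and X:14859597, to the left of the dmd-4 start site on the map. The left flank, which follows the 3′ end of dmd-4, held 27 pooled summits, or 54.0 per 100 kb against a mean of 13.7 over X. The dmd-4 gene held 3, and the right flank, upstream of dmd-4, held 0. In replicate 1 the left flank, the gene and the right flank held 32, 8 and 2 summits, and in replicate 2 they held 27, 3 and 2. The left flank thus had 3.95 times the X mean in the pooled list, 3.13 times in replicate 1 and 2.49 times in replicate 2. The contrast between the flanks was therefore present in each replicate as well as in the pooled list. One of the 2 right-flank regions of each replicate was the start-site region.

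Past the start-site region the lists had a long gap. In replicate 1 the regions ended 464 bp beyond the start site and in replicate 2 455 bp beyond it. The next region of replicate 1 lay 42.4 kb farther, in an intron of hex-5, a hexosaminidase gene, with a signal of 7.3. Among 3432 gaps between neighbouring regions of replicate 1 on X it was the 7th longest, where the median gap was 2560 bp. In replicate 2 the next region, 25.7 kb farther and 320 bp upstream of daf-6, a patched-related gene of glial tubes, had a signal of 8.5. That gap ranked 50th of 3590, with a median of 2620 bp. In the pooled list the gap ran 65.0 kb from intron 2 of dmd-4 and ranked 7th of 2300, with a median of 3440 bp.

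Gene and base content of the flanks is given beside these counts, and whether either had a part in the contrast was not tested. Each flank contained 10 whole protein-coding genes, and with all biotypes counted the left held 17 genes and the right 20. GC content was 35.2% in the left flank and 35.8% in the right, against 35.2% over X. The genes of the right flank, which include the neuropeptide gene flp-8, the dicarboxylate transporter gene nac-1 and the lipase gene lips-8, had no pooled region at all within the span. On the left the dense stretch ran slightly past the edge of the span. Counted in bins of 10 kb, the 60 kb to the left of the start site held 32 pooled regions (5.33 per 10 kb), and the 40 kb beyond them held 2 (0.5 per 10 kb). The X mean was 1.37 per 10 kb. The 60 kb to the right held 0 and the next 40 kb held 5 (1.25 per 10 kb). These bounds were chosen after the counts were seen.

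The replicates showed the same steps. In replicate 1 the 60 kb to the left of the start site held 41 regions, the 40 kb beyond them 4, the 60 kb to the right 4 and the next 40 kb 7, with an X mean of 2.05 per 10 kb. In replicate 2 the counts were 32, 3, 3 and 9, with an X mean of 2.16 per 10 kb. In all 3 lists the stretch to the left of the start site thus held more regions than the stretches on either side of it. Whether the transgene carries this stretch is not stated in the sources used. A part of transgene copies in these counts was not tested and cannot be told apart from the native locus.

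**Figure D2:**
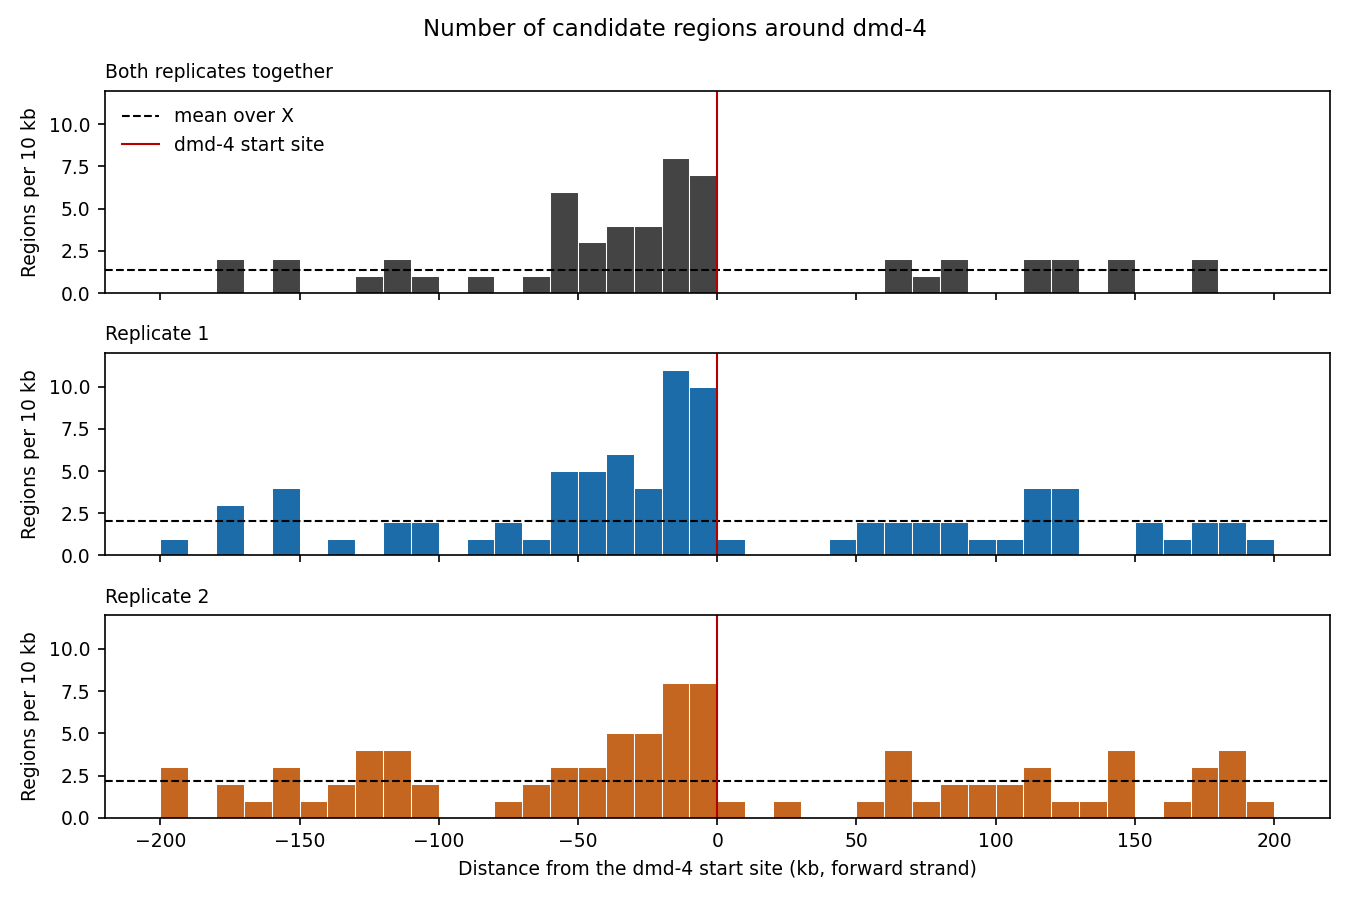
Number of candidate regions in bins of 10 kb, by distance from the dmd-4 start site, for the pooled list and each replicate, with the mean over X as a dashed line. In the pooled list the 6 bins to the left of the start site hold 3 to 8 regions each and the 6 bins to its right hold 0.

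Compared with X as a whole, the locus stood at the upper end in the pooled list and in replicate 1 more than in replicate 2. X was divided into 169 consecutive windows as wide as the span, with bounds that do not follow the locus. They held a median of 14 pooled regions and at most 36, and 2 of them held at least the 30 of the locus. For replicate 1 the median was 22 and the highest 49, and 1 window reached the 42 of the locus. For replicate 2 the median was 22 and the highest 46, and 16 windows reached its 32. IDR peaks were sparser, with 129 of the 169 windows holding none and the fullest holding 3. When windows of 50000 bp were started at each summit, the fullest of X lay at dmd-4 in the pooled list (28 regions) and in replicate 1 (37). In replicate 2 the fullest, with 32, began at X:16648534. There 5 separate stretches of X, that at dmd-4 among them, held at least the 27 of the left flank.

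**Figure D3:**
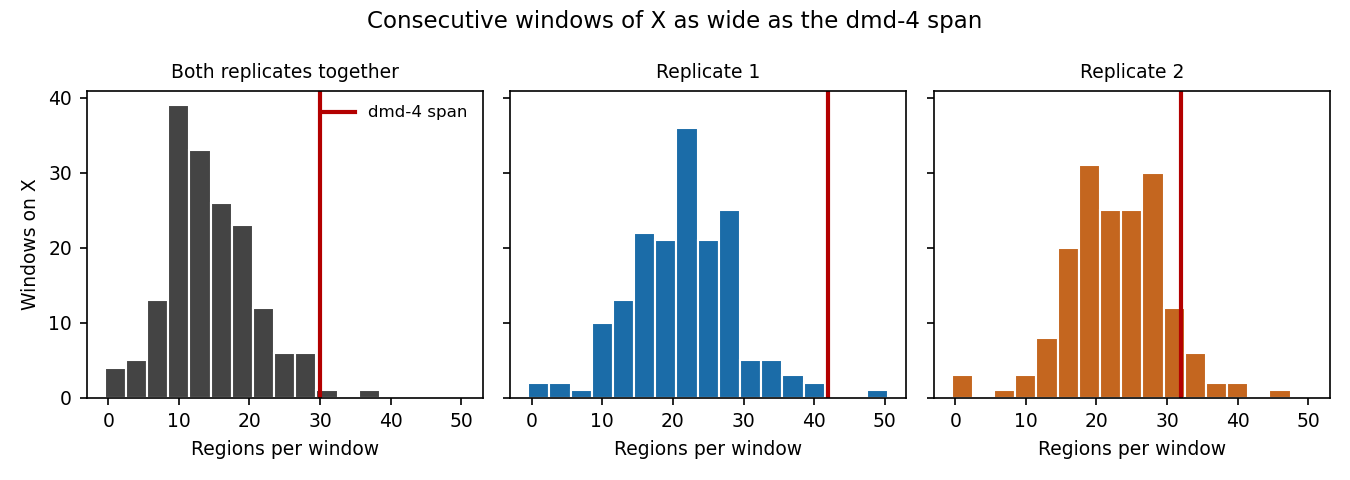
Histograms of the number of candidate regions in 169 consecutive windows of X, each as wide as the dmd-4 span, for the pooled list and each replicate. The red line marks the span, at 30, 42 and 32 regions, which lies to the right of most windows in the first 2 panels and among the upper windows in the third.

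The other pooled regions of the left flank lay among genes of varied function. Nearest to its outer edge were regions near F42D1.4 and in an intron of atf-4, with pooled signals of 13.2 to 16.2, which replicate 1 held and replicate 2 did not. atf-4 encodes a bZIP transcription factor of the stress response, and a stronger region 183 bp upstream of it (X:14810818-14811167) had signals of 31.4 pooled, 16.4 in replicate 1 and 16.3 in replicate 2. Beyond the 3′ end of T04C10.3, a region at X:14815214-14815563 had 19.7 pooled and was found in both replicates. The region 627 bp upstream of epn-1, which encodes the endocytic adaptor epsin, was one-sided. At X:14818966-14819315 it had 29.9 pooled and 29.5 in replicate 1, there at the highest −log10 q-value, but no region in replicate 2. It overlaps the non-coding RNA genes T04C10.8 and T04C10.9.

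Further along came mbk-1, a kinase gene of the minibrain (DYRK) family, and dpf-2. A region 692 bp upstream of mbk-1 had signals of 21.2 pooled, 12.8 in replicate 1 and 8.2 in replicate 2, and 2 weaker ones between mbk-1 and dpf-2 had 13.5 and 14.7 pooled. The region 131 bp upstream of dpf-2 had 24.6 pooled, 14.6 and 8.9. Past the 3′ end of dpf-2, X:14838397-14838746 had 36.8 pooled, 27.4 and 16.3, so that this end of dpf-2 and both IDR peaks beyond it formed the strongest cluster outside dmd-4. From there to egrh-1 the pooled signals ranged from 13.8 to 22.1 outside the IDR peaks. Within introns of egrh-1 there were 2 pooled regions. One, at X:14846580-14846929, had 19.1 pooled and 17.2 in replicate 1 with none in replicate 2. The other, at X:14847791-14848140, had 37.5 pooled and 20.3 in replicate 2. In replicate 1 the region with the nearest summit had 11.0, and a neighbouring region that overlapped the edge had 15.0.

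Between egrh-1 and dmd-4 the pooled signals were at most 20.9, although 1 region there was strong in replicate 2. acd-3, a gene of the degenerin and epithelial sodium channel family, held a pooled region in an intron with 13.4 pooled, 11.1 in replicate 1 and 8.0 in replicate 2. C27C12.1 and C27C12.4 are divergently transcribed, and a region between their start sites at X:14853838-14854187 had 20.9 pooled, 11.6 and 24.6. Its value in replicate 2 ranked 234th of 18240, beside 24.5 there for the IDR peak nearer to egrh-1. A region in an intron of C27C12.4 (X:14855068-14855417, 13.2 pooled) was the 1 pooled member that replicate 2 held, at 8.8, and replicate 1 did not. Overlapping regions with summits between C27C12.4 and the 3′ end of dmd-4 had 16.0 and 14.5 pooled.

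Signals of the members ran slightly above those of X. The pooled members had a lowest signal of 13.2, a median of 19.4 and a highest of 91.0, where the median over X was 16.7, and 18 of the 30 lay above that median. In replicate 1 they had 7.1, 11.4 and 47.8, with an X median of 9.3, and 31 of 42 lay above it. In replicate 2 they had 6.8, 10.1 and 51.6, with an X median of 8.5, and 21 of 32 lay above it. Members at the highest −log10 q-value of their list were 5 of 30 pooled (16.7%, against 3.16% of the whole list), 6 of 42 in replicate 1 (14.3%, against 1.83%) and 3 of 32 in replicate 2 (9.38%, against 1.17%). The 5 pooled ones include both overlapping regions of dmd-4 intron 2, so they are not all separate sites. By position, 21 of the 30 pooled summits (70%) were intergenic and 9 (30%) intronic, where X had 57% and 32.1%. A promoter window reached from 1000 bp before to 200 bp after a protein-coding start site, and 7 of 30 summits (23.3%) lay in one, near the 25.2% of X.

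The share of regions found in both replicates was higher at the locus than over X. Of the 30 pooled members, 21 (70%, interval 50.6% to 85.3%) overlapped a region of each replicate, against 40.6% of the 2421 pooled regions of X. With summits within 100 bp in place of any overlap, the shares were 43.3% and 22%. Replicate 1 held 29 of them and replicate 2 held 22, with 8 in replicate 1 alone and 1 in replicate 2 alone. Of the 42 regions of replicate 1, 23 (54.8%) overlapped one of replicate 2, against 32.3% on X, and 24 of the 32 of replicate 2 (75%) overlapped one of replicate 1, against 30.4%. Regions that lie densely overlap more often by position alone, and the part of this in these shares was not tested. Joined where they overlapped, the 3 lists gave 42 separate loci in the span, with 18 in all 3 lists, 8 in the pooled list and replicate 1, and 1 in the pooled list and replicate 2. Replicate 1 alone held 7 and replicate 2 alone 6. The other 2 were shared by both replicates without a pooled region. One was the dmd-4 start-site region, and the other, in the 3′ UTR of epn-1, was weak, at 11.2 and 11.6.

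Across the 21 pooled members found in both replicates, the replicate signals had a Spearman rho of 0.56 and a Pearson r of 0.68 on the log2 scale. Over the 961 other such regions of X these were 0.25 and 0.60. The values are descriptive, since some overlapping pooled regions took the same replicate values and all points come from 1 chromosome. The strongest member values, 47.8 and 46.1 in dmd-4 intron 2, entered for both overlapping pooled regions there. Replicate 1 had the higher value at 14 of the 21 members and at 578 of the 961 others. The scales of the 2 lists need not be equal.

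**Figure D4:**
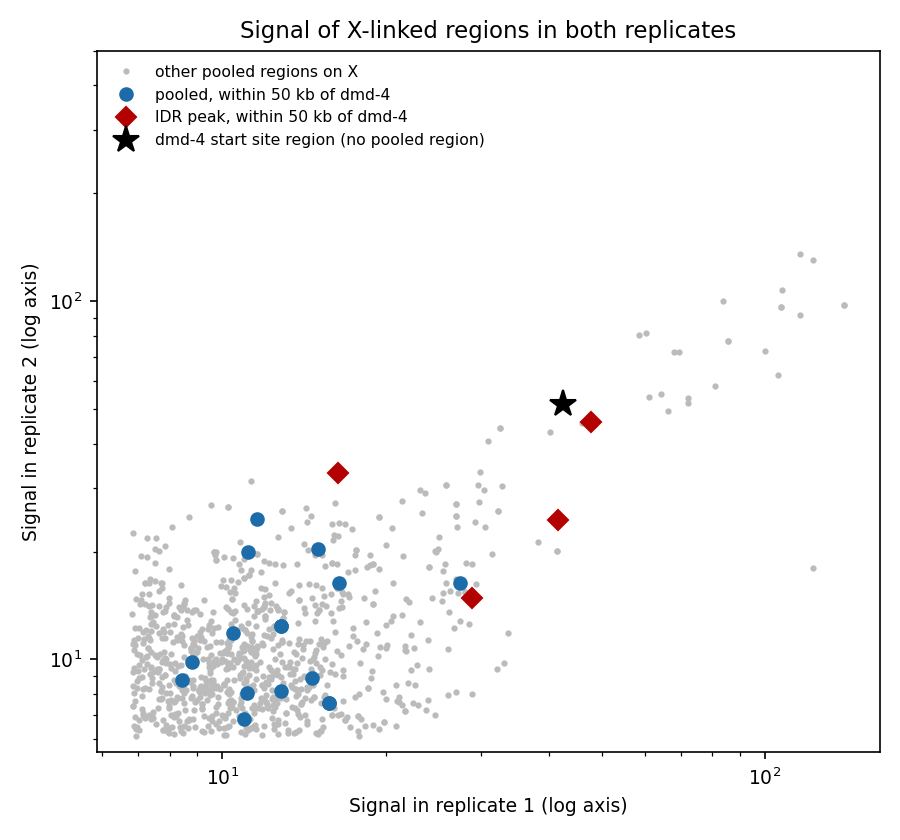
Signal in replicate 2 against signal in replicate 1, both on log axes, for pooled regions of X found in both replicates, with members in blue, IDR peaks of the locus as red diamonds and the dmd-4 start-site region as a star. The star, at 42.5 and 51.6, and the dmd-4 intron 2 peak, at 47.8 and 46.1, lie together near the diagonal and members at other sites lie lower in both replicates.

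Known DM-domain sequences occurred at the locus in shares near those of other candidate regions. The core ACAATGT, whose reverse complement is ACATTGT, lay within 100 bp of the summit in 1 of the 30 pooled members (3.33%), against 4.5% of pooled regions on X and 3.35% over the nuclear genome. That site is shown because it lies in dmd-4 itself. It occupies X:14859392-14859398 in intron 2, 31 bp from the summit of the overlapping region that had a signal of 39.6, and the IDR peak there ends at 14859397, inside the site. In the surrounding sequence, X:14859372-14859418 of WBcel235 on the forward strand, capitals mark the core.
DM core in dmd-4 intron 2: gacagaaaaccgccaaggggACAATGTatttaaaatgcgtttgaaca

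TGTTGC, the core of the MAB-3 site, was searched on both strands like all motifs here, and lay within 100 bp of the summit in 3 of 30 (10%, against 9.46% on X). Those regions were the one past the 3′ end of dpf-2, one 1418 bp upstream of egrh-1 and the one between C27C12.1 and C27C12.4. An earlier look at these data had found 3 other sequences in IDR peaks. CTTGCGC occurred in 0 of 30 members, against 0.867% on X. CCCTGCG likewise occurred in 0 of 30, against 1.03%. GCAGGGA, which overlaps the last one in part as its reverse complement, also occurred in 0 of 30, against 1.07%. None of these motifs lay in the windows printed for the 4 IDR peaks and the start site. Nor did the windows share a sequence of 6 bases across all 5. Their GC content ran from 30.3% and 32.3% for the first 2 in the order printed to 43.3%, 40.3% and 41.3% for the others, with medians of 30.3% for pooled regions and 39.1% for IDR peaks of X.

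Other DM-domain genes gave a comparison made in the same way. Of 11 listed genes 10 were found by name in the annotation, the exception being dmd-11. Within 50 kb, dmd-4 had 30 pooled regions and the 9 others had 3 (mab-23) to 38 (dmd-6), with a median of 13. By number alone dmd-4 was therefore exceeded by dmd-6, whose regions reached a signal of 32.2. An IDR peak lay within 50 kb of 1 of the 9 others, dmd-7, which had 1, at 47.7. A pooled region overlapped the gene itself in 3 of the 9, with highest signals of 24.8 at dmd-6, 16.0 at dmd-7 and 23.6 at dmd-10, while at dmd-4 it was 91.0. The span around unc-119, the gene mutated in the strain, held 13.2 pooled regions per 100 kb against 11.5 over its chromosome, and around dmd-4 it was 28.7 against 13.7, a ratio of 2.1. Relative to their chromosomes, dmd-6 (ratio 2.73), dmd-7 (2.47) and dmd-10 (2.47) were denser than dmd-4 in the pooled list. Pooled density over the whole span thus did not set dmd-4 apart within the family. The flanks were counted apart for dmd-4 alone. By number, dmd-6 had 58 regions in replicate 1 against 42 at dmd-4. In replicate 2 dmd-6 had 31, dmd-4 32 and dmd-10 41.

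**Figure D5:**
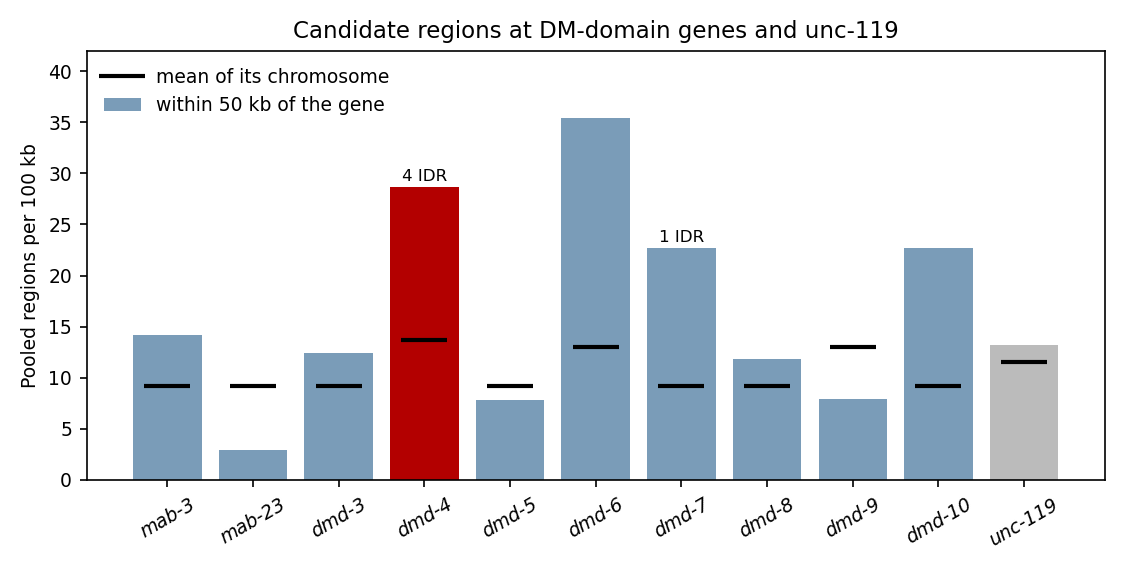
Pooled candidate regions per 100 kb within 50 kb of each DM-domain gene and of unc-119, with the mean of the gene's chromosome as a black line and the number of IDR peaks above the bar where there are any. dmd-4, at 28.7, and dmd-6, at 35.4, have the tallest bars, and IDR peaks lie at dmd-4 (4) and dmd-7 (1).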

How the data were processed

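The data were ChIP-seq region lists from 2 biological replicates of 1 group. Per the deposited file descriptions, each replicate and the pair of replicates had its own list of candidate regions, and IDR peaks were derived from these lists. The aligner, the peak caller, the IDR threshold and the control are not named in the sources used. Signal is the authors' value per region, used to describe and rank regions within a list. The −log10 q-value and the summit offset were used as deposited. All 7 lists used matched their deposited checksums. Depth per sample is unknown. Reads and signal tracks were not used here.

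All positions count from 1 in ce11, the same sequence as WBcel235, and genes came from Ensembl release 115. A region belonged to the span with any overlap, and regions of different lists matched with at least 1 bp in common. A pooled region took the highest signal of the overlapping replicate regions. The ce10 lists served for 1 count within that build. No score or test was computed across regions, and exact Clopper-Pearson intervals at 95% cover the counting of regions.

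The members, the motifs and the gene lists were chosen with earlier results of these data known. Named genes were those nearest by start site to, or holding, the summit of a pooled region of the span, with dmd-4, the DM-domain list and unc-119. Genes of the right flank were named after the values were seen. Alternatives were other spans, stricter lists, other overlap criteria, other motif windows and each replicate alone. The work used Python 3.11.15, numpy 2.4.6, pandas 2.3.3, scipy 1.17.1 and matplotlib 3.10.9, and the overlap functions were tested on simulated regions with known answers.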

Additional observations from a re-analysis of the deposited data

How the results depend on the processing

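The count of 30 pooled regions was 9 with a span of 10 kb on each side of dmd-4 and 19 with 25 kb, 39 with 100 kb, 27 after merging overlapping regions, and 18 among pooled regions above the median signal of their list. The 4 IDR peaks became 1 within 10 kb, 3 within 25 kb, 4 within 100 kb and 1 among IDR peaks above their median signal, and 3 to 5 when 1 replicate was left out and the other's 212 strongest regions were taken. These counts do not stand for the same peaks. Replicate 1's 5 overlapped 3 of the 4 IDR peaks and missed that of T04C10.3, and replicate 2's 3 overlapped 2 and missed both upstream of egrh-1. Of the 4, the intron 2 peak of dmd-4 alone was in both sets. The start-site region, which is no IDR peak, was in both, and the region upstream of epn-1 in that of replicate 1. The density relative to X, 2.1 for the whole span, was 2.68 with 10 kb, 2.55 with 25 kb and 1.4 with 100 kb, and 1.41 to 1.96 with 1 replicate left out, the lower value being that without replicate 1. It was 3.95 in the left flank alone, where replicate 1 gave 3.13 and replicate 2 gave 2.49, and 0 in the right flank alone, where they gave 0.195 and 0.185, so the whole-span ratio averages 2 unlike sides. The share of pooled members found in both replicates, 70%, fell to 50% with a reciprocal overlap of at least 50% and to 43.3% with summits within 100 bp, where the shares over X were 30.5% and 22%. The nearest gene of the IDR peaks was the same for 2 of the 4 by start sites of any biotype, and for 2 of the 4 by nearest gene body, which gave dpf-2 in place of egrh-1. The DM core was in 1 of 30 members (3.33%) within 50 bp, within 100 bp and over whole regions, against 1.94%, 4.5% and 7.48% of X, so the order of locus and X turned with the window. The MAB-3 core was in 2, 3 and 6 of 30, with 1 of the 4 IDR peaks in the last case, against 4.83%, 9.46% and 15.6% of X. Strong regions of both replicates without a pooled region numbered 1 at signals of 25, 30 and 40, and 2 at 20. In ce10 they numbered 1 at 25, 30 and 40, and 3 at 20. The flanks alone, the other signal cutoffs and the ce10 lists were alternatives chosen after seeing the data. No paired analysis was possible because there was 1 group and no test. Where a value moved, the cause was not tested beyond the smaller spans and shorter lists themselves.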
